A study of Mus musculus with 9 samples.

Results

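The genes described here encode the proteins of the cytosolic ribosome. They were chosen by name alone, as the genes called *Rpl* or *Rps* with a number, together with *Rpsa*, *Rplp0*, *Rplp1* and *Rplp2*, leaving out the *Rps6k* kinases and names that end in -ps. Of the 25239 gene names listed, 86 met this rule, 33 for the small subunit and 53 for the large subunit. A mean TPM (transcript abundance corrected for transcript length and for library size) of at least 1 over all libraries was reached by 83 of the 86 genes, and only these were tested. Below that level were *Rpl10l* and *Rpl39l*, which were listed at 0 in all 9 libraries, and *Rpl3l*, which had a mean of 0.373 TPM.

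Whole retinas of C57BL/6J mice at postnatal day 42 were profiled by strand-specific poly(A) RNA-Seq, with the pair of retinas of 1 mouse as 1 library. Wild-type mice (+/+), mice with 1 *Rbpms*-CreERT2 allele (Cre/+) and mice with 2 such alleles (Cre/Cre) gave 3 libraries each. The knock-in allele carries P2A-CreERT2 behind the last codon of *Rbpms*, an RNA-binding protein that marks retinal ganglion cells, so that Cre is made where *Rbpms* is transcribed. The labels of these libraries name no tamoxifen, and the +/+ mice carried no Cre allele. The question put to these libraries was whether the knock-in allele altered gene expression in the retina. Ganglion cells are a small part of the retina, and in whole tissue fewer cells of a type and less RNA per cell cannot be told apart.

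A ribosome consists of a small subunit, which reads the codons of the mRNA, and a large subunit, which joins the amino acids. Each subunit is an rRNA scaffold with many small basic proteins, and as a rule 1 copy of each protein enters each subunit, so cells make these proteins in balanced amounts. Their mRNAs belong to the class that begins with a C followed by an unbroken run of pyrimidines, through which mTOR and LARP1 set their translation. Introns of some of the genes house small nucleolar RNAs, and the abundant mRNAs have seeded the genome with processed copies that closely resemble the parent mRNA. Photoreceptors renew their outer segments every day, and ribosomes supply the protein for it.

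The first bases of the mRNA carry the feature that these genes are known for, and they are shown here from 15 bases before to 15 bases from the annotated start, in the sense of the gene. The sequences are those of RefSeq on GRCm38.p6, and capitals mark the run of C and T that begins with a C at the start or near it. The examples stand for both subunits and for paralogs, and were picked with the motif in view.
Rps6: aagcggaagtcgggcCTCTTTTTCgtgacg
Rps10: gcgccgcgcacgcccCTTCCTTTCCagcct
Rps18: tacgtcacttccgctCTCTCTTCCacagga
Rpl28: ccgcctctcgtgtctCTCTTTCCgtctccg
Rpl15: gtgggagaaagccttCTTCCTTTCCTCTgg
Rpl35: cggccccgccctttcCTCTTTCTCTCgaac
Rps27: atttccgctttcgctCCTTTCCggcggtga
Rpl22l1: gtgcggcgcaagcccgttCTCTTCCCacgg
Rpl7l1: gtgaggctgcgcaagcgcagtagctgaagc
These windows lie at chr4:86857353-86857382 (*Rps6*, minus strand), chr17:27635230-27635259 (*Rps10*, minus), chr17:33955651-33955680 (*Rps18*, minus), chr7:4792950-4792979 (*Rpl28*, plus), chr14:18270972-18271001 (*Rpl15*, minus), chr2:39005117-39005146 (*Rpl35*, minus), chr3:90213634-90213663 (*Rps27*, minus), chr3:28805493-28805522 (*Rpl22l1*, plus) and chr17:46782642-46782671 (*Rpl7l1*, minus). In *Rps6* through *Rps27* the run begins exactly at the annotated start, in *Rpl22l1* it begins 3 bases later, and the window of *Rpl7l1* holds none.

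Of the 86 genes, 65 were matched to a RefSeq start. A C at the start followed by at least 4 bases that are each C or T, read on the sense strand only, was found in 14 of the 65 genes (21.5%), against 3.01% of all 27025 genes in that table. Small-subunit genes held it in 6 of 24 cases and large-subunit genes in 8 of 41. When the C was allowed to lie within 5 bases of the annotated start, 30 of the 65 genes (46.2%) and 21.2% of all genes held the motif. None of the 69 matched genes for mitochondrial ribosomal proteins held it at the start, and 24.6% held it within 5 bases. The annotated start can differ from the start used in the retina, so a gene without the motif in this window may still begin with it.

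In the genome the 86 genes are scattered over 19 chromosomes. On the X chromosome lie *Rps4x*, *Rpl10*, *Rpl36a* and *Rpl39*. Of the 110 small nucleolar RNA genes listed, 31 lie inside the locus of a ribosomal protein gene, shared among 22 host genes, with *Rpl13a* alone holding *Snord32a*, *Snord33*, *Snord34* and *Snord35a*. A mean of at least 1 TPM was reached by 30 of these 31 small nucleolar RNA genes, with a highest mean of 26.1 TPM for *Snord15b* in *Rps3*. Poly(A) selection and size selection bear on such short RNAs, and reads of the host's introns cannot be told apart from them here.

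As checks on the libraries, 4.05 to 4.65 gigabases were aligned per library, and the deposited coverage and TPM give no read counts per gene. *Rbpms* itself was at 43.2, 38.4 and 43.4 TPM in +/+, at 31.3, 32.2 and 33.1 TPM in Cre/+ and at 19.7, 19.1 and 24.2 TPM in Cre/Cre, with no overlap between genotypes. Its log2 fold change was −0.96 ± 0.098 (SE) in Cre/Cre (adjusted p = 0.000581 by limma) and −0.36 ± 0.098 in Cre/+ (adjusted p = 0.355). Markers of retina were present throughout, with the 4 rod genes summing to between 36283 and 44279 TPM. The library of Cre/Cre replicate 1 stood apart, with 9.21% of its TPM in *Rn45s*, the rRNA precursor, against 0.0827% to 0.336% in the others. *Xist*, the RNA of the inactive X chromosome, was at 2.08 to 3.16 TPM in Cre/+ replicate 3 and in Cre/Cre replicates 1 and 3, and at 516 to 585 TPM in the other libraries. All +/+ libraries were thus high in *Xist*, so its level was partly confounded with genotype. Lens genes (13 in the list) summed to 1310 TPM in Cre/Cre replicate 2 and to 23.4 to 304 TPM in the others, and the ganglion cell genes *Slc17a6*, *Nefl* and *Thy1* summed to 926 to 981 TPM in the +/+ and Cre/+ libraries and to 711 to 863 TPM in Cre/Cre. Blood genes (6 in the list) summed to 150 to 182 TPM in +/+ and to 92.5 to 105 TPM in Cre/+. In Cre/Cre they summed to 185 to 300 TPM, without overlap between the genotypes. The globin genes *Hbb-bs* and *Hbb-bt* were listed at 0 in every Cre/+ library. Another globin gene, *Hba-a1*, was listed at 0 in every +/+ library, with means of 29.6 TPM in Cre/+ and 139 TPM in Cre/Cre. The part of blood, lens and ganglion cell RNA in the results was not tested, and the medians below are also given without single libraries.

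Ribosomal protein mRNAs were among the most abundant in the retina. The median of the 83 genes was 378 TPM, compared with 26.5 TPM over all 15198 genes tested, and 76 of them exceeded 100 TPM. The levels were also close to one another, with 63 genes between 200 and 800 TPM. Only 4 of them ranked among the 100 most abundant genes and 57 among the top 500, the best at rank 48.

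The most abundant member was *Rplp1*, an acidic protein of the stalk that recruits elongation factors to the large subunit. It was at 1101, 1498 and 1335 TPM in +/+, at 1289, 1347 and 1200 TPM in Cre/+ and at 1119, 1203 and 1157 TPM in Cre/Cre. All 3 genotypes overlapped, and the largest spread was among the +/+ libraries. Next came *Rps14*, a small-subunit protein whose loss is known from a form of myelodysplasia, at a mean of 1133 ± 106 TPM (SD, n = 9), and *Rps15* at 1005 ± 83.0 TPM. Among the 10 most abundant were also *Rpl13a*, *Rpl7*, *Rpl8*, *Rpl4* and *Rpl3*, with means between 818 and 667 TPM. *Rpl3*, *Rpl4* and *Rpl8* are core proteins of the large subunit close to its rRNA. The stalk's other proteins had lower mRNA levels per length than *Rplp1*, with 350 ± 32.2 TPM for *Rplp2* and 308 ± 18.8 TPM for *Rplp0*, the base of the stalk, although each stalk holds both acidic proteins in equal number.

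Several members have roles of their own. *Rpl5* and *Rpl11*, which carry the small rRNA of the large subunit and can bind MDM2, were at 266 and 280 TPM. *Rps6*, the substrate of S6 kinase and a common readout of mTOR activity, was at 436 TPM. *Rps27a*, whose product is fused to ubiquitin, was at 407 TPM. *Rpsa*, also known as the laminin receptor, was at 395 TPM, *Rps3*, which lines the mRNA entry, at 378 TPM, and *Rps19*, the gene most often mutated in Diamond-Blackfan anaemia, at 248 TPM. *Rpl10*, a protein of the peptidyl transferase centre that joins the subunit last, was at 337 TPM.

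At the other end, *Rps20* (34.9 ± 3.15 TPM), *Rps27l* (34.2 ± 5.92 TPM), *Rpl34* (62.8 ± 11.7 TPM) and *Rpl7l1* (63.8 ± 3.44 TPM) were the lowest above *Rpl32l*. *Rps27l* and *Rpl7l1* are paralogs of *Rps27* and *Rpl7*. *Rps20* and *Rpl34*, in contrast, encode proteins of every ribosome, and their listed levels lay far under the median of the other members. A further row shared the locus of *Rpl34*, as described next, and none shared that of *Rps20*. Ribosomal protein genes have many processed copies, and where reads match more than 1 copy, the level listed under a name depends on how the aligner and StringTie placed them, so single low values are uncertain.

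**Figure D1:**
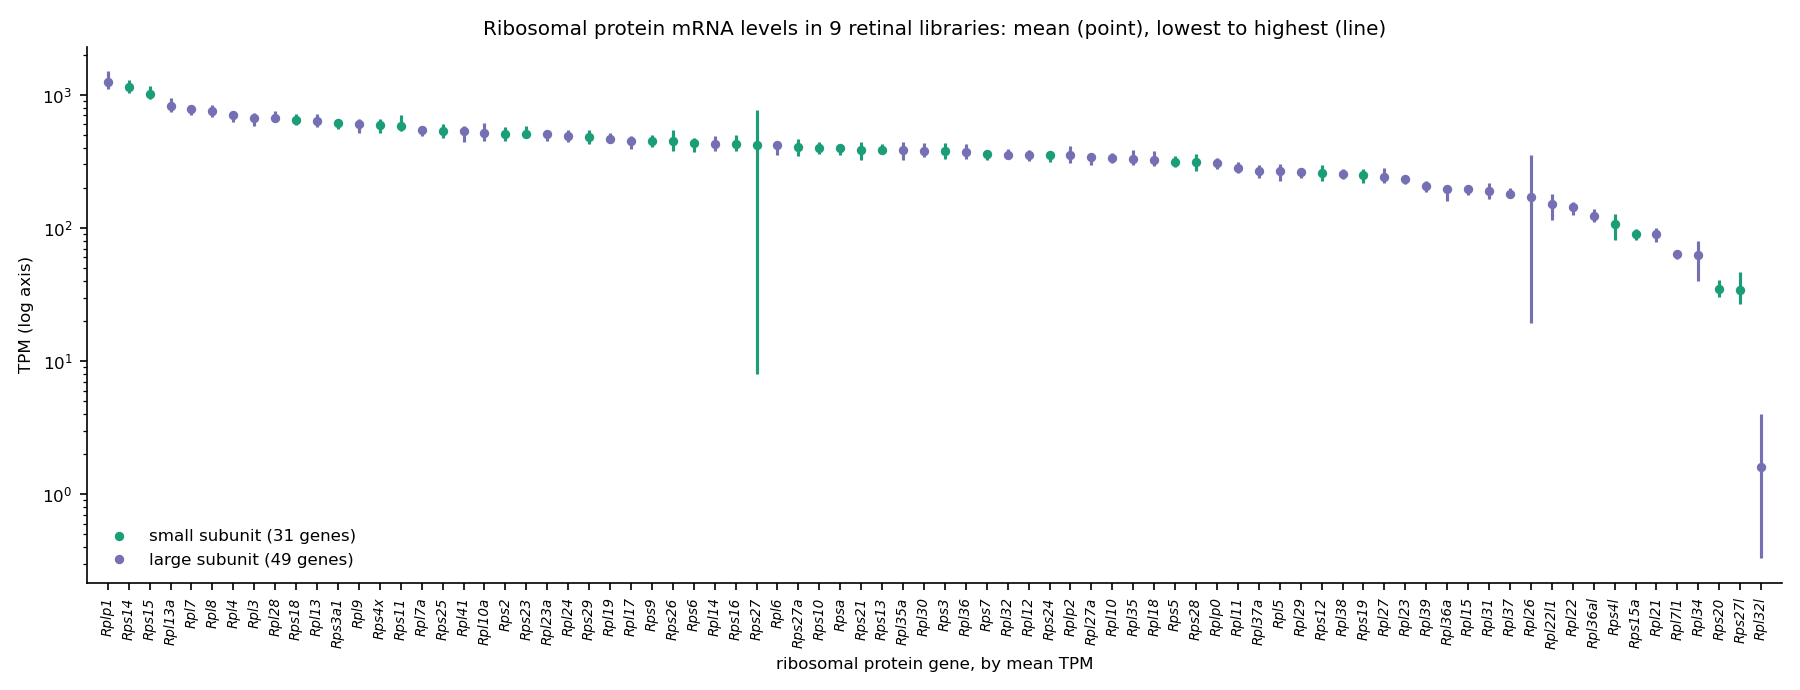
Mean TPM of 80 of the 83 tested ribosomal protein genes over 9 libraries (points, log axis, ordered by mean) with lines from the lowest to the highest library. Most genes lie between 200 and 800 TPM with short lines, whereas *Rps27* (7.99 to 762 TPM) and *Rpl26* (19.4 to 353 TPM) span far more, and *Rpl32l* lies apart at a mean of 1.59 TPM.

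At 4 loci a second gene name was listed at nearly the same coordinates and on the same strand as the member, in all 9 tables. These were *Rps27rt* at *Rps27* on chromosome 3, *Gm15772* at *Rpl26* on chromosome 11, *Rpl34-ps1* at *Rpl34* on chromosome 3 and *Gm12191* at *Rpl30* on chromosome 15. GENCODE gene models for GRCm38, to which mm10 corresponds, put all 4 names elsewhere, at chr9:114982366-114982739 (*Rps27rt*), chr5:3236431-3236868 (*Gm15772*), chr6:71124610-71124963 (*Rpl34-ps1*) and chr11:49678710-49679057 (*Gm12191*), and type the last 3 as processed pseudogenes and *Rps27rt* as protein-coding. Their sequences are nearly those of the parent. Over the coding sequence, *Rps27rt* matched *Rps27* at 255 of 255 bases, *Gm15772* matched *Rpl26* at 436 of 438, *Gm12191* matched *Rpl30* at 347 of 348 and *Rpl34-ps1* matched *Rpl34* at 352 of 354.

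The coding sequence shared by *Rps27* and *Rps27rt* is shown because no base of it tells the copies apart, followed by 30 coding bases of the other pairs around their first difference, which is in capitals. Bases are counted from the A of the start codon, and all are GENCODE transcript sequences.
Rps27 and Rps27rt, bases 1 to 255: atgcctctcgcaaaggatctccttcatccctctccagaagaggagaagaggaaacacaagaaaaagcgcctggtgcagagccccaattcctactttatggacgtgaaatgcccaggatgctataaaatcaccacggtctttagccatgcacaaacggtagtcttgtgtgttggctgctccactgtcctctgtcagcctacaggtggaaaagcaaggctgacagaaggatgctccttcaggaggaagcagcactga
Rpl26, bases 162 to 191: agttcaggttgttcgCggacactacaaagg
Gm15772, same bases: agttcaggttgttcgTggacactacaaagg
Rpl30, bases 81 to 110: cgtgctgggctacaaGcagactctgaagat
Gm12191, same bases: cgtgctgggctacaaAcagactctgaagat
Rpl34, bases 117 to 146: gaaagcacctaaatcTgcatgtggcgtgtg
Rpl34-ps1, same bases: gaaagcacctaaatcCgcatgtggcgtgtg

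How the signal of a locus was divided between its names varied from library to library. *Rps27*, a zinc-finger protein of the small subunit, was listed at 7.99, 574 and 648 TPM in +/+, at 762, 590 and 566 TPM in Cre/+ and at 590, 17.0 and 20.8 TPM in Cre/Cre. *Rps27rt* was listed at 604, 118 and 13.8 TPM in +/+, at 19.5, 157 and 133 TPM in Cre/+ and at 8.27, 656 and 659 TPM in Cre/Cre. High and low values of both names occurred within the same genotype, and *Rps27rt* was highest in the libraries where *Rps27* was lowest. Their sum stayed between 599 and 781 TPM, and the coefficient of variation (CV) over 9 libraries dropped from 73.6% for *Rps27* to 8.49% for the sum.

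The same held for *Rpl26*, a large-subunit protein near the exit tunnel. It was listed at 19.4, 81.2 and 338 TPM in +/+, at 23.8, 353 and 353 TPM in Cre/+ and at 286, 47.7 and 29.7 TPM in Cre/Cre. In the 4 libraries with the highest *Rpl26* the split with *Gm15772* was close to even, and elsewhere *Gm15772* took up to 97.2% of the sum. The sum ranged from 580 to 789 TPM with a CV of 8.15%, compared with 91.7% for *Rpl26* alone. *Rpl34-ps1* held 77.2% to 88.6% of the sum at *Rpl34*, which ranged from 281 to 394 TPM. *Gm12191* held 5.33% to 23.6% of the sum at *Rpl30*, which ranged from 416 to 521 TPM. With both rows counted, *Rpl26* and *Rpl34* stood at the level of other members.

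**Figure D2:**
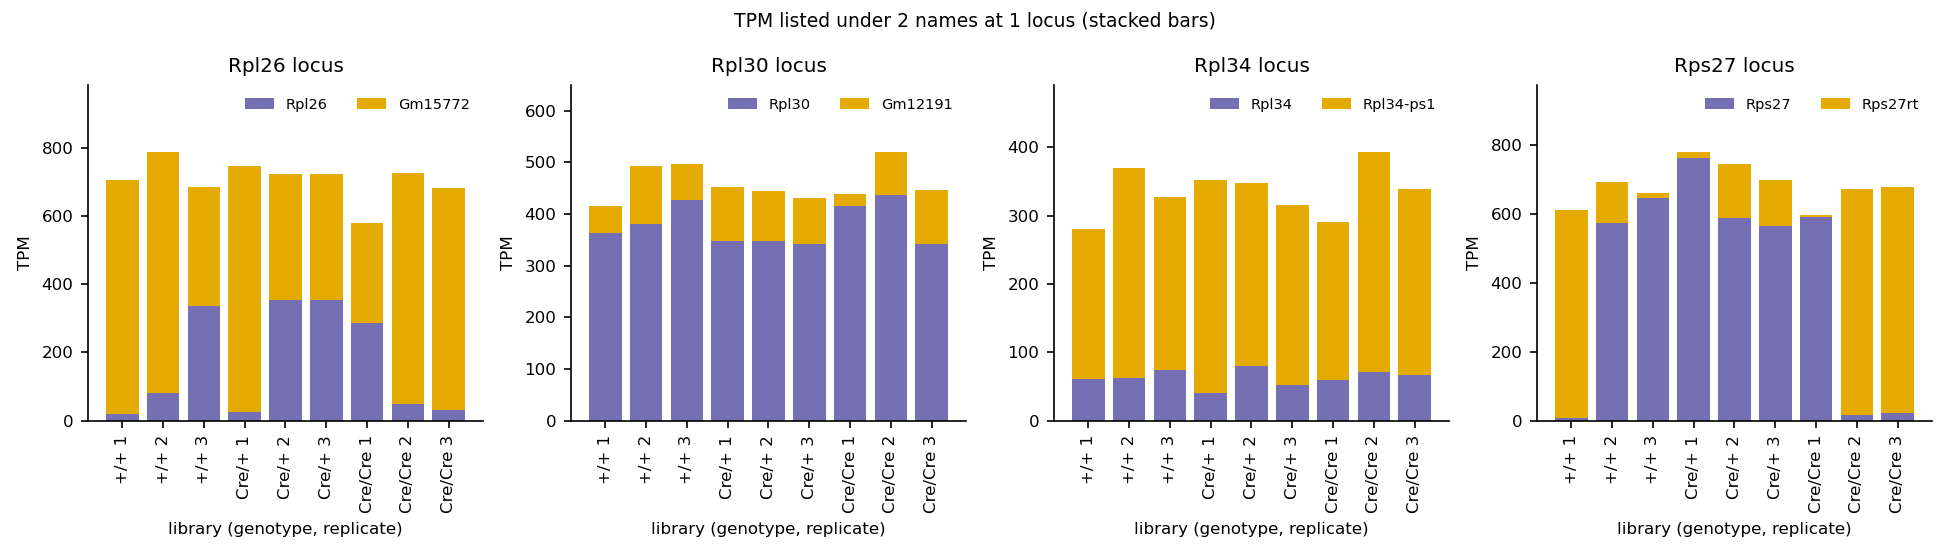
TPM listed under the member's name (purple) and under the second name at the same locus (yellow), stacked for each of the 9 libraries, in 1 panel per locus with its own linear axis. The division between the names changes between libraries of 1 genotype at *Rps27* and *Rpl26*, while the stacked heights stay between 599 and 781 TPM and between 580 and 789 TPM.

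Fitted differences at these loci depended on the same division. For *Rps27* alone the log2 fold change, on the scale of log2(TPM + 1), was 2.08 ± 2.10 (SE) in Cre/+ and −1.28 ± 2.10 in Cre/Cre against +/+ (adjusted p = 0.736 and 0.960, limma). With the rows of a locus summed, an alternative chosen after the data were seen, it was 0.18 ± 0.078 in Cre/+ and −0.01 ± 0.078 in Cre/Cre (adjusted p = 0.431 and 0.991). For *Rpl26* the values were 0.82 ± 1.61 and −0.13 ± 1.61 alone, and 0.01 ± 0.086 and −0.14 ± 0.086 with rows summed. For *Rpl34* in Cre/+ the value was −0.24 ± 0.228 alone and 0.06 ± 0.115 with rows summed. Summing the rows narrowed the standard error of *Rps27* and *Rpl26* to that of a typical member, and no adjusted p came under 0.05.

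Beyond these loci the genes varied little. The median CV of the 83 genes over the 9 libraries was 7.60%, compared with 10.01% over all genes tested. Abundance went with this difference, since the median CV of all 2091 genes of at least 100 TPM was 7.37%, and that of the 76 ribosomal protein genes of at least 100 TPM was 7.55%. *Rpl7* (CV 4.79%), *Rpl15* (4.98%), *Rpl7l1* (5.39%), *Rpsa* (5.39%) and *Rps3a1* (5.42%) varied least. *Rpl26*, *Rps27*, *Rpl32l* (69.4%), *Rpl34* (18.7%) and *Rps27l* (17.3%) varied most.

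All 86 genes together made up 3.24%, 3.65% and 3.55% of the TPM in +/+, 3.41%, 3.36% and 3.27% in Cre/+, and 3.12%, 3.51% and 3.18% in Cre/Cre. The genotypes overlapped, and the difference between their means was within the spread of the libraries, at 3.48% ± 0.215, 3.34% ± 0.0707 and 3.27% ± 0.213 (SD, n = 3 each). Leaving out *Rn45s* and the genes of short RNAs from the total moved the lowest library, Cre/Cre replicate 1, from 3.12% to 3.54%. Small-subunit genes contributed 1.36% to 1.62% of the TPM and large-subunit genes 1.76% to 2.04%.

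The ratio of summed large-subunit to summed small-subunit TPM lay between 1.23 and 1.32 in all 9 libraries. It was higher in each Cre/Cre library (1.292, 1.317 and 1.321) than in any Cre/+ library (1.232, 1.288 and 1.284), while +/+ (1.311, 1.259 and 1.304) overlapped both. In +/+ its mean was 1.29 ± 0.0283 (SD, n = 3), in Cre/+ 1.27 ± 0.0310, and for Cre/Cre 1.31 ± 0.0158. With the rows of the 4 shared loci summed, the ratio narrowed to between 1.31 and 1.35, with 1.33 ± 0.0150, 1.32 ± 0.0103 and 1.33 ± 0.000753, and Cre/Cre again lay above Cre/+ in every library.

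**Figure D3:**
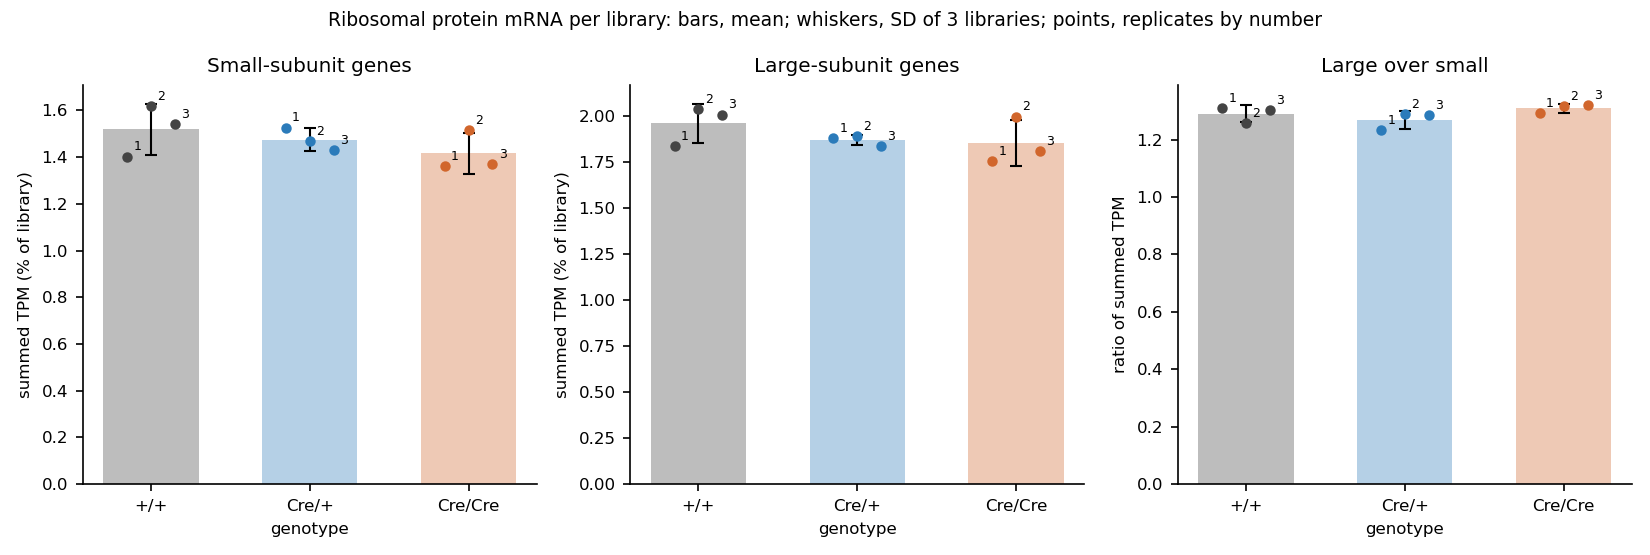
Summed TPM of small-subunit genes and large-subunit genes as a percent of the library, and the ratio of large to small, by genotype, on axes from 0. Bars are means, whiskers SD of 3 libraries, and points single libraries with their replicate number. The points of the genotypes overlap in the first 2 panels, and the ratio stays between 1.23 and 1.32.

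Against +/+, none of the 83 genes passed an adjusted p of 0.05 in Cre/+ or in Cre/Cre (limma on log2(TPM + 1), adjusted over all 15198 genes). Of all genes tested, 0.00658% passed in each of these contrasts. Between Cre/Cre and Cre/+, where 0.0132% of all genes passed, and in the test for any difference among the genotypes (0.0132%) or for a trend over 0, 1 and 2 alleles (0.00658%), none of the 83 passed either. At an unadjusted p under 0.05 in Cre/+, 1 gene was higher and 10 were lower, against 4.9% higher and 5.82% lower of all genes. In Cre/Cre, 0 were higher and 1 was lower, against 1.58% and 5.39%. Between Cre/Cre and Cre/+, 4 were higher and 4 lower, against 2.38% and 4.2%. These counts, and the shares over all genes, moved when single libraries were left out. The genes lower in Cre/+ numbered 17 without +/+ replicate 1 (6.15% of all genes) and 17 without Cre/Cre replicate 1 (7.54%), but 4 without +/+ replicate 2 (4.96%) and 5 without +/+ replicate 3 (2.88%). Those lower in Cre/Cre numbered 15 without Cre/Cre replicate 2 (7.25% of all genes) and 8 without +/+ replicate 1 (5.22%). Without any other single library they numbered 0, against 3.46% to 6.54% of all genes. Those higher in Cre/Cre than in Cre/+ numbered 9 without Cre/Cre replicate 1 (3.24%) and 2 without Cre/Cre replicate 2 (2.03%). The any-difference test gave 7 genes at an unadjusted p under 0.05, against 8.63% of all genes, and the trend gave 0, against 1.42% higher and 4.82% lower.

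The precision of these comparisons was high for most members. In Cre/+ against +/+, the 95% interval of the fold change lay within 1.5-fold in either direction for 79 of the 83 genes, the exceptions being *Rpl26*, *Rpl32l*, *Rpl34* and *Rps27*. In Cre/Cre against +/+ it did so for 80 genes, without *Rpl26*, *Rpl32l* and *Rps27*. The median standard error was 0.0823 on the log2 scale. For nearly all members, a change of 1.5-fold or more therefore lay outside the interval.

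**Figure D4:**
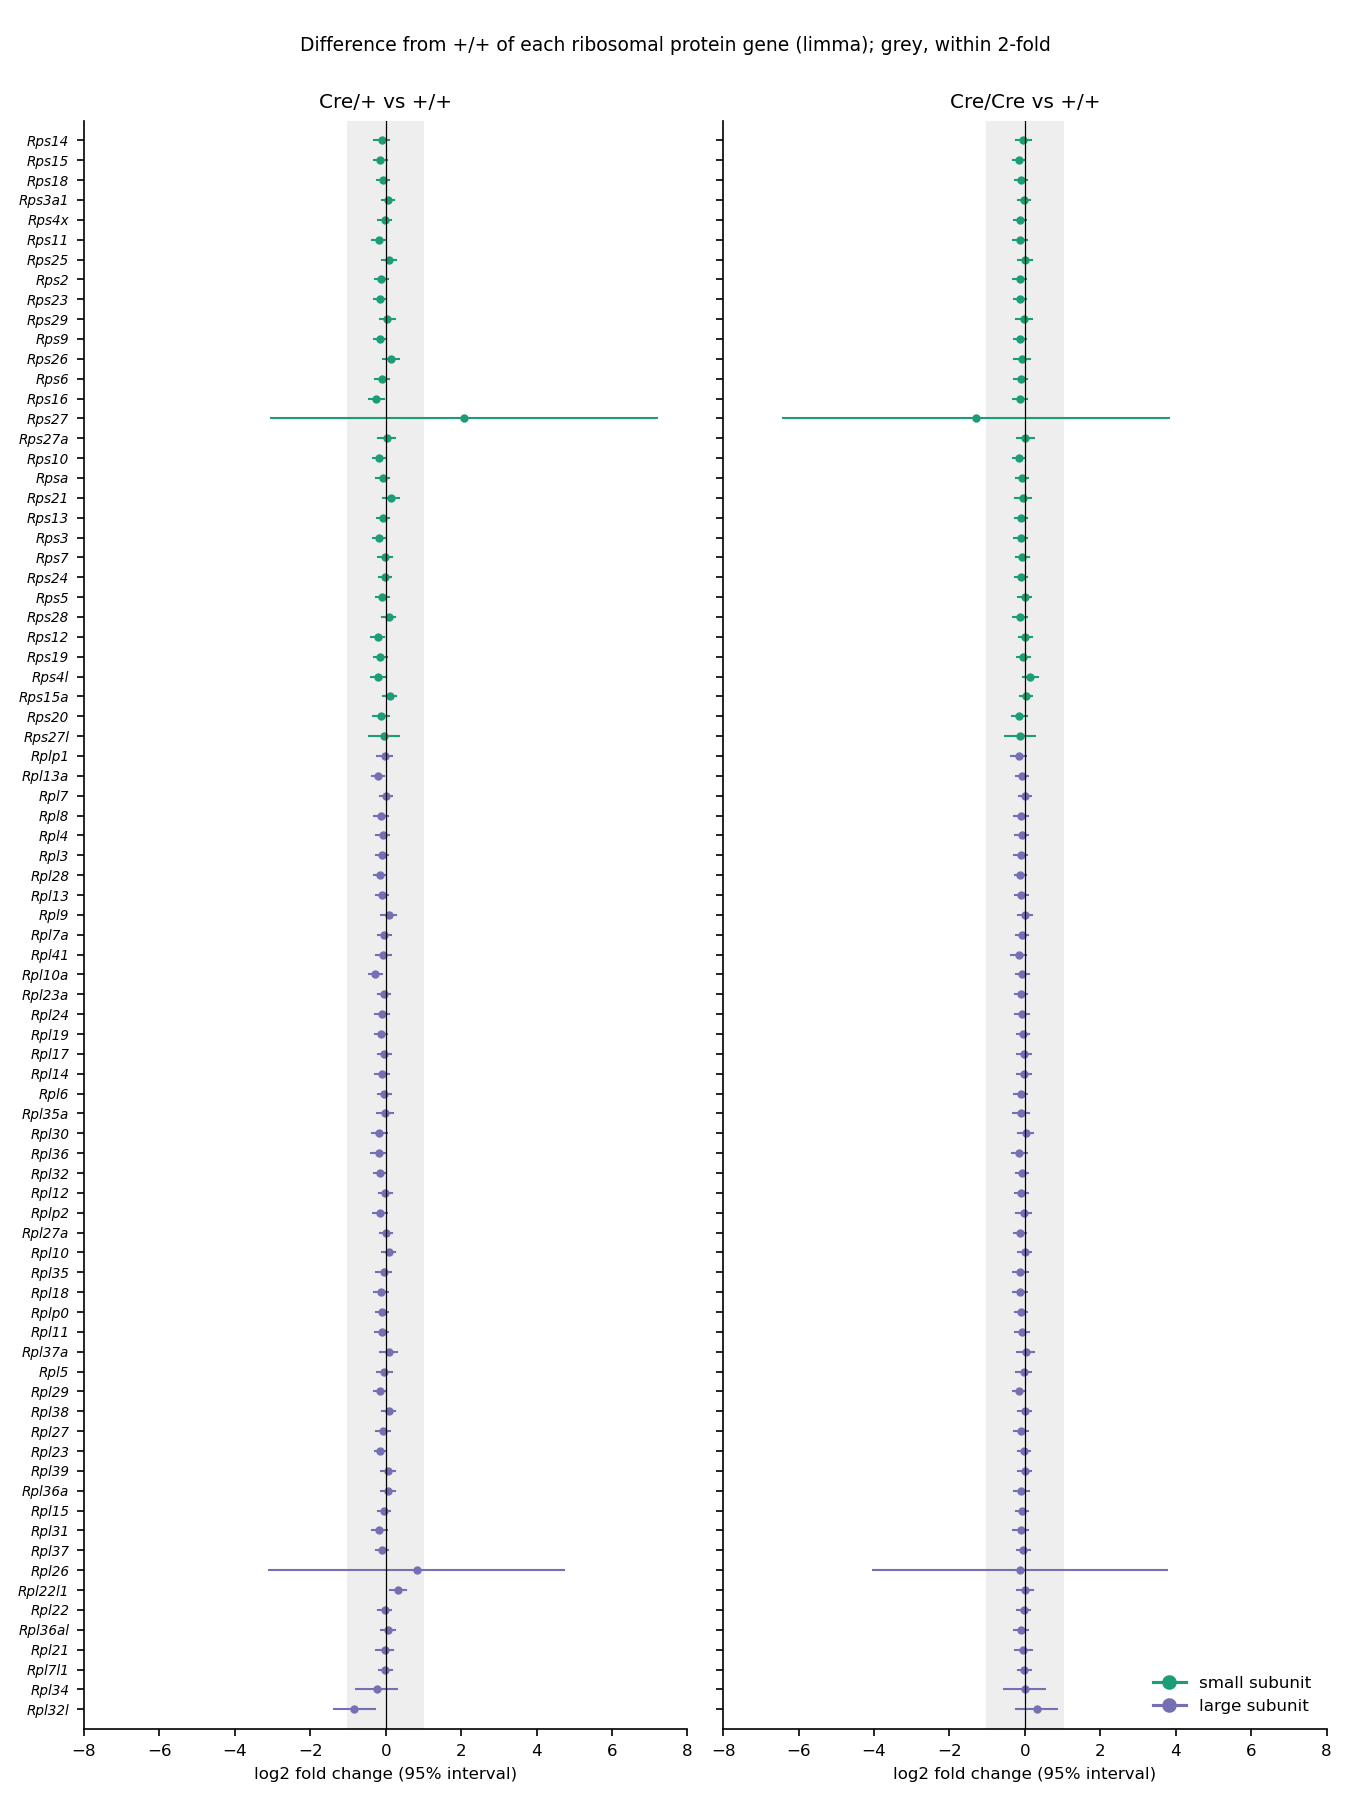
Log2 fold change (points) and 95% interval (lines) of 80 of the 83 tested genes in Cre/+ and in Cre/Cre against +/+ by limma, small subunit in green and large subunit in purple, ordered by mean TPM within each subunit. Grey marks the range within 2-fold. Most points lie slightly left of 0 with short intervals, and the long intervals are those of *Rps27* and *Rpl26*.

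Most members leaned slightly to lower values in both knock-in genotypes. The median log2 fold change of the 83 genes was −0.08 in Cre/+ and −0.08 in Cre/Cre, both compared with the same +/+ libraries, while the median over all genes was 0.00 and −0.02. Values under 0 were seen for 63 of the 83 genes in Cre/+, against 49.6% of all genes, and for 74 in Cre/Cre, against 57.7%. The mean level was highest in +/+ for 58 of the 83 genes, in Cre/+ for 20 and in Cre/Cre for 5. This order was not counted over all genes, of which 57.7% also lay under 0 in Cre/Cre, so it cannot be read as particular to the members. Between Cre/Cre and Cre/+ the median was −0.01, with 47 genes under 0, against 59.2% of all genes.

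The size of this lean was that of the differences between single libraries. Relative to the +/+ mean, the median deviation of the members was −0.07, 0.06 and 0.02 on the log2 scale in the +/+ libraries, −0.03, −0.08 and −0.11 in Cre/+, and −0.17, 0.03 and −0.10 in Cre/Cre. The SD of these values within genotypes was 0.0762. Cre/Cre replicate 1 held the lowest value of 47 of the 83 genes (56.6%) and of 38.6% of all genes tested. The highest value lay in +/+ replicate 2 for 28 of the 83 (33.7%) and for 8.03% of all genes, and in Cre/Cre replicate 2 for 27 (32.5%) and for 13.3% of all genes.

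Leaving out a library moved the medians of the members and of all genes, in some cases in opposite directions. Without Cre/Cre replicate 1, the median in Cre/Cre was −0.02 for the members, with 57 under 0 (68.7%), and 0.02 for all genes, with 43.8% under 0. Without *Rn45s* and short RNA genes it was −0.02 for the members, with 53 under 0 (63.9%), and 0.03 for all genes, with 40.3% under 0. In both fits the median of the members still lay under that of all genes. Without Cre/Cre replicate 2 the median was −0.14 for the members, with 80 under 0 (96.4%), and −0.05 for all genes, with 63.8% under 0. Without Cre/Cre replicate 3 it was −0.06 for the members, with 69 under 0 (83.1%), and −0.05 for all genes, with 65.9% under 0. Without Cre/+ replicate 3 the median in Cre/+ was −0.06 for the members, with 54 under 0 (65.1%), and 0.00 for all genes, with 50.8% under 0. Without +/+ replicate 1 the members' medians were −0.12 in Cre/+ and −0.13 in Cre/Cre, against 0.01 and −0.02 for all genes, and without +/+ replicate 2 both were −0.05, against −0.01 and −0.04. With *Xist* as a covariate the members' medians were −0.04 in Cre/+, with 50 under 0 (60.2%), and −0.02 in Cre/Cre, with 47 (56.6%). Those of all genes were 0.01 in Cre/+, with 47.1% under 0, and −0.01 in Cre/Cre, with 51.9%.

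**Figure D5:**
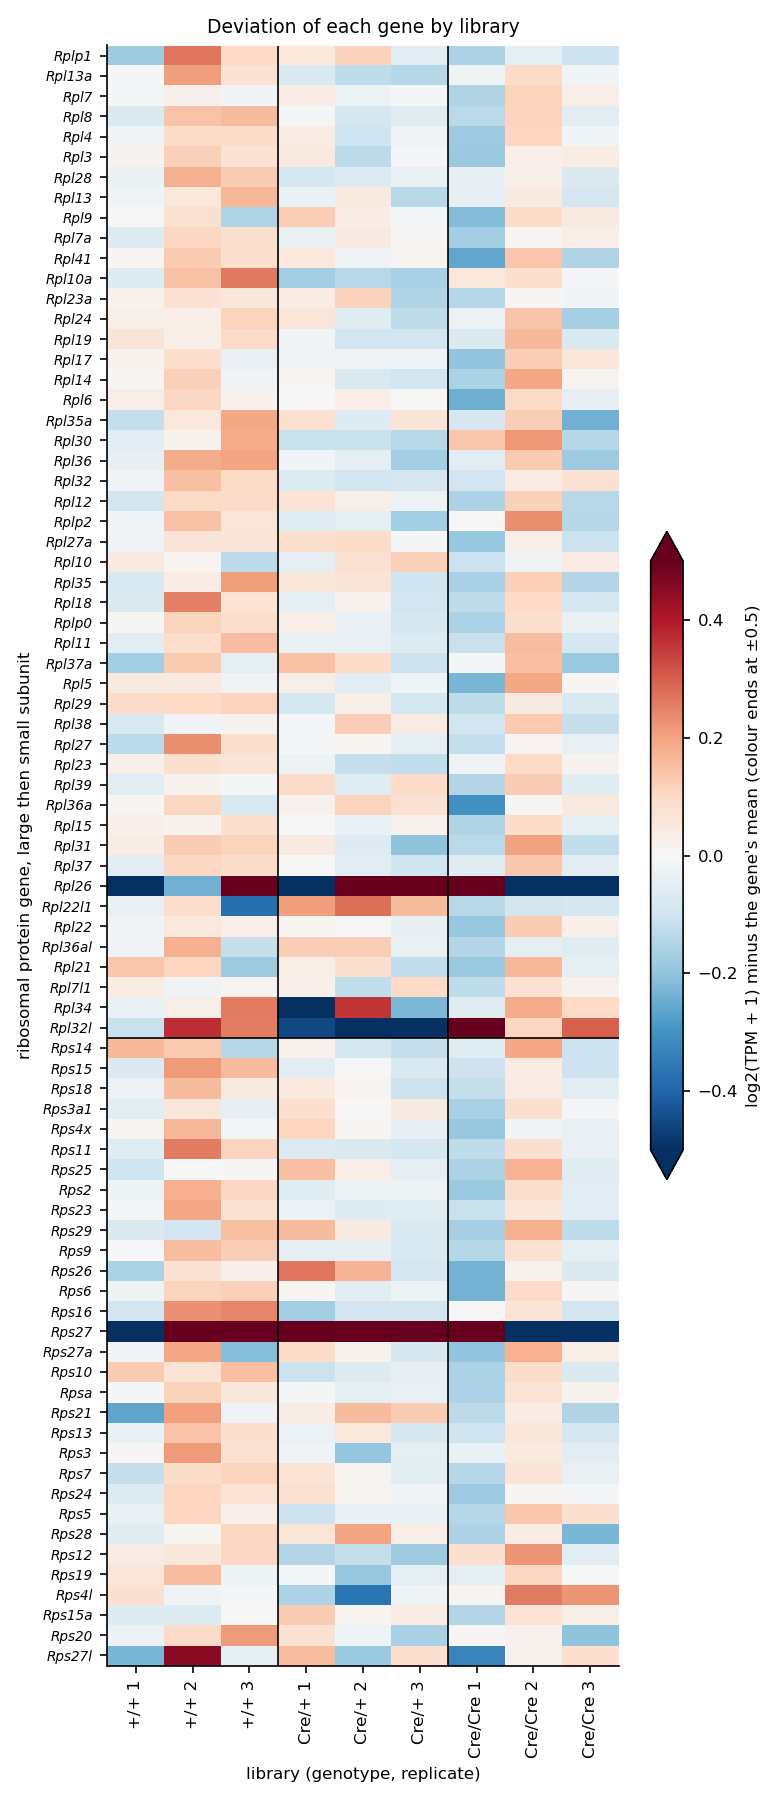
Deviation of log2(TPM + 1) from each gene's mean over 9 libraries, for 80 of the 83 tested genes (rows, large then small subunit, by mean TPM) and the libraries (columns, 3 per genotype), with colours ending at ±0.5. Columns are coloured as a whole: Cre/Cre replicate 1 is mostly blue (47 of all 83 genes lowest there, as are 38.6% of all genes tested) and +/+ replicate 2 and Cre/Cre replicate 2 mostly red (28 and 27 genes highest there). *Rps27*, *Rpl26* and *Rpl32l* run past the colour range in several libraries.

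The member with the smallest unadjusted p in Cre/+ was *Rpl10a*, a large-subunit protein found on only part of the ribosomes in some cells. It was at 487, 563 and 611 TPM in +/+, at 451, 463 and 456 TPM in Cre/+ and at 528, 540 and 507 TPM in Cre/Cre. All Cre/+ libraries lay under all +/+ libraries, and Cre/Cre lay inside the range of +/+. Its log2 fold change in Cre/+ was −0.27 ± 0.081 (SE, 95% interval −0.44 to −0.10, adjusted p = 0.369) and that in Cre/Cre was −0.07 ± 0.081 (adjusted p = 0.928).

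*Rpl22l1*, the paralog of the RNA-binding protein *Rpl22*, had the smallest p among the members with a higher value in Cre/+. It was at 145, 158 and 114 TPM in +/+, at 172, 181 and 166 TPM in Cre/+ and at 135, 140 and 140 TPM in Cre/Cre. The Cre/+ libraries were above all others. The log2 fold change was 0.32 ± 0.098 in Cre/+ (adjusted p = 0.376), 0.00 ± 0.098 in Cre/Cre (adjusted p = 0.997) and −0.32 ± 0.098 between Cre/Cre and Cre/+ (adjusted p = 0.607). *Rpl22* itself was at 138 to 144 TPM in Cre/+ and at 140 to 148 TPM in +/+, so the paralog made up 54.6% to 55.9% of the pair in Cre/+, 44.0% to 51.8% in +/+ and 47.4% to 52.1% in Cre/Cre.

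Lower values without overlap in Cre/+ were seen for 17 genes, against 10.3% of all genes, and higher ones for 2, *Rpl22l1* and *Rps15a*, against 11.9%. Among the 17 were *Rpsa*, *Rps3*, *Rps10*, *Rps12*, *Rpl13a*, *Rplp2* and *Rpl29*. *Rpl13a*, which also has a role in silencing inflammatory mRNAs outside the ribosome, was at 812, 944 and 857 TPM in +/+, at 776, 748 and 739 TPM in Cre/+ and at 804, 872 and 809 TPM in Cre/Cre. *Rps12*, a small-subunit protein, was at 264, 267 and 276 TPM in +/+, at 231, 236 and 227 TPM in Cre/+ and at 271, 298 and 246 TPM in Cre/Cre. In both genes the Cre/Cre libraries lay around those of +/+ and the Cre/+ libraries lay under both. The summed blood genes were likewise lowest in Cre/+ (92.5 to 105 TPM), and their part in this was not tested. The log2 fold changes of *Rpl13a* and *Rps12* in Cre/+ were −0.20 ± 0.074 and −0.22 ± 0.078 (adjusted p = 0.399 and 0.397).

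In Cre/Cre against Cre/+, 7 genes were higher without overlap, against 4.76% of all genes, and 3 were lower, against 7.23%. Few members kept Cre/Cre apart from +/+. Without overlap, 3 genes were lower, against 8.05% of all genes, and 0 were higher, against 2.7%. The 3 were *Rpl29*, *Rpl23a* and *Rps4x*, of which *Rpl23a* falls outside the rule for named genes and is named here after its values were seen. *Rpl29*, a heparin-binding protein of the large subunit that mice can live without, was at 277, 279 and 282 TPM in +/+, at 245, 266 and 245 TPM in Cre/+ and at 239, 269 and 247 TPM in Cre/Cre. It was the only member whose libraries of both knock-in genotypes lay under all 3 of +/+, a pattern that 3.63% of all genes shared. None was higher in both without overlap, against 0.908% of all genes. The log2 fold change was −0.15 ± 0.073 in Cre/+ and −0.15 ± 0.073 in Cre/Cre (adjusted p = 0.468 and 0.718). The smallest unadjusted p in Cre/Cre was that of *Rps10*, a protein of the small subunit's head, at 433, 416 and 441 TPM in +/+, 368, 379 and 386 TPM in Cre/+ and 356, 422 and 378 TPM in Cre/Cre, with −0.16 ± 0.0755 (adjusted p = 0.715).

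Other members at the ends of the ranking in Cre/Cre were *Rplp1* (−0.17), *Rpl41* (−0.17) and, on the higher side, *Rpl32l* (0.32), *Rps4l* (0.15), *Rps15a* (0.03) and *Rpl30* (0.02), as log2 fold changes against +/+ with adjusted p between 0.780 and 0.987. For *Rps16* in Cre/+ the value was −0.25 ± 0.089 (adjusted p = 0.404), with overlapping libraries, and for *Rps26* it was 0.14 ± 0.098 (adjusted p = 0.600). The 4 X-linked members had log2 fold changes from −0.03 to 0.07 in Cre/+, and in Cre/Cre from −0.13 to −0.01. Libraries low in *Xist* occurred only in the knock-in genotypes.

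Paralogs and retrocopies within the list had levels of their own. *Rpl36al*, an autosomal retrogene that encodes nearly the same protein as the X-linked *Rpl36a*, made up 36.6% to 41.0% of the pair, with a mean of 122 TPM. *Rps4l* on chromosome 6, which GENCODE types as a transcribed processed pseudogene, made up 12.1% to 17.8% of its pair with *Rps4x*. It was at 111, 104 and 105 TPM in +/+, at 94.5, 81.5 and 104 TPM in Cre/+ and at 106, 126 and 123 TPM in Cre/Cre. Cre/Cre lay above Cre/+ without overlap, with a log2 difference of 0.34 ± 0.094 (adjusted p = 0.518). *Rpl7l1*, whose product acts in assembly of the large subunit, made up 7.12% to 8.10% of its pair with *Rpl7*.

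*Rps27l*, a p53 target, was at 26.7 to 46.5 TPM. Its share of the pair with *Rps27* ran from 4.32% to 78.2%, and with *Rps27rt* counted in, from 3.82% to 6.29%. *Rpl3l*, the striated-muscle form of *Rpl3*, made up at most 0.101% of its pair. *Rpl10l* and *Rpl39l*, which serve the male germ line, were listed at 0 throughout.

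*Rpl32l* on chromosome 10, a processed pseudogene in GENCODE, was the lowest tested member and the one with the smallest p between Cre/Cre and Cre/+. It was at 1.22, 2.10 and 1.86 TPM in +/+, at 0.757, 0.330 and 0.509 TPM in Cre/+ and at 3.98, 1.59 and 1.95 TPM in Cre/Cre. Cre/+ lay under both other genotypes in every library. The log2 fold change was −0.83 ± 0.257 in Cre/+ against +/+ (adjusted p = 0.377) and 1.14 ± 0.257 in Cre/Cre against Cre/+ (adjusted p = 0.344). At this level it depends on the pseudocount, being −1.56 in Cre/+ with a pseudocount of 0.1 and −0.38 with FPKM.

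Further proteins of the ribosome lay outside the name rule, at levels within the range of the members. *Fau*, the ubiquitin-like fusion that yields a small-subunit protein, was at 420 to 488 TPM in +/+, 408 to 438 TPM in Cre/+ and 444 to 470 TPM in Cre/Cre. *Rack1*, the signalling scaffold on the small subunit, was at 318 to 377 TPM over all libraries. Neither passed the test, with log2 fold changes of −0.13 for *Fau* and −0.10 for *Rack1* in Cre/+, while those in Cre/Cre were −0.02 and −0.07.

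Around the ribosome, none of the lists held a gene past an adjusted p of 0.05 in any contrast. The 78 genes for mitochondrial ribosomal proteins, which serve a separate ribosome, had a median log2 fold change of −0.05 in Cre/+ and −0.06 in Cre/Cre, with 2 higher and 7 lower at an unadjusted p under 0.05 in Cre/+, whereas Cre/Cre gave 1 higher and 8 lower. Their smallest p in Cre/+ was that of *Mrps28* (−0.46 ± 0.112, adjusted p = 0.319) and in Cre/Cre that of *Mrpl49* (−0.31 ± 0.080, adjusted p = 0.525). The 54 genes for ribosome assembly had medians of −0.03 and −0.05, with *Eif6*, which holds the subunits apart until the large one is mature, at −0.21 ± 0.078 in Cre/+ (adjusted p = 0.404) and *Fbl*, the rRNA methylase fibrillarin, at −0.28 ± 0.084 in Cre/Cre (adjusted p = 0.543).

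Elongation factors and other genes known for the pyrimidine start (15 genes) had medians of 0.03 in Cre/+ and −0.07 in Cre/Cre. Only 9 of them were matched to a RefSeq start. The motif lay at the annotated start in 2 of the 9 and within 5 bases in 4, against 3.01% and 21.2% of all genes. Of the 15 genes 1, *Eef1b2*, was lower at an unadjusted p under 0.05 in Cre/+ (−0.16 ± 0.076, adjusted p = 0.456), against 5.82% of all genes. The 31 other translation factors had medians of 0.03 and −0.04. At that limit 2 were higher and 1 lower in Cre/+, against 4.9% and 5.82% of all genes. In Cre/Cre there were 0, against 1.58% higher and 5.39% lower of all genes. *Eif5*, which triggers GTP hydrolysis at the start codon, had the smallest p of these factors in Cre/+ (0.23 ± 0.080, adjusted p = 0.397). Of 17 genes for mTOR and its regulators, 16 were tested, with medians of −0.06 and −0.03. At an unadjusted p under 0.05 there were 0 in Cre/+, against 4.9% higher and 5.82% lower of all genes. There were also 0 in Cre/Cre, against 1.58% and 5.39%.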

How the data were processed

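The libraries were poly(A)-selected, strand-specific and sequenced as pairs of 150-base reads. The authors trimmed reads with Trimmomatic, checked them with FastQC, aligned them to mm10 with HISAT2 and SAMtools, and quantified genes with StringTie. Versions and annotation are not given in the sources used here. Per the file headers, each library's table holds coverage (signal per base), FPKM and TPM, as the authors deposited them, with no read counts, so the authors' DESeq2 test was not repeated and counting error per gene is unknown. Multi-mapped reads can be split between near-identical copies.

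Rows listed under the same name were added up. The 15198 of 25239 names that averaged 1 TPM or more were tested with limma 3.58.1 (R 4.3.3, trend and robust prior) on log2(TPM + 1), a scale that understates changes of low genes. The model held genotype alone and used all 9 libraries (6 residual degrees of freedom), and p-values were adjusted by Benjamini-Hochberg over all genes tested. The trend used the number of alleles. Replicates are separate mice. Second rows counted as sharing a locus where they overlapped by at least 50% both ways on the same strand. Aligned gigabases are the common value of coverage over FPKM among genes with coverage above 5. Starts came from RefSeq (GRCm38.p6) and coding sequences from GENCODE transcripts. Of the 86 genes, 21 had no RefSeq entry.

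In simulated data for Cre/Cre against +/+ with 15198 genes, limma recovered 171 of 200 genes lowered 2-fold (7 false calls), 107 at 1.5-fold (6 false) and 0 at 1.2-fold, and called 0 without change. The simulated noise was independent between genes and libraries, with each gene's SD within genotypes, raised to a floor where very low. Shifts of a whole library were not simulated, so these figures need not hold for the libraries here.

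Named genes are the members past the adjusted p, the 10 highest and 5 lowest by mean TPM, the 4 highest and 4 lowest fold changes in each contrast with +/+, those with both knock-in genotypes on 1 side of +/+, the 5 largest and 5 smallest CV, those under the filter, the paralog pairs, a fixed list of roles, and of other lists *Fau*, *Rack1* and the gene with the lowest p. Some genes that the rule names are not reported here, nor drawn in the figures. The members and lists were chosen with earlier results of these data known. *Rn45s*, *Xist* and the small nucleolar RNAs are named as library checks or by position, and the genes with no overlap or a low unadjusted p as counted.

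Alternatives were median-ratio scaling, a block for replicate number, an *Xist* covariate, 0.1 as pseudocount, all listed genes tested, leaving out *Rn45s* and short RNA genes (1301 names), FPKM, only the genotypes compared, no robust prior, leaving out paralogs, and each library left out. Summing rows of 1 locus, with and without Cre/Cre replicate 1, was chosen after seeing the data. Figures used matplotlib 3.10.9 in Python 3.11.15.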

Additional observations from a re-analysis of the deposited data

How the results depend on the processing

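No ribosomal protein gene passed the adjusted p limit of 0.05 in any contrast of the 20 alternative fits (0 genes), and the lowest adjusted p of a member in any of them was 0.129. With each library left out in turn, the count ranged from 0 to 0, the median log2 fold change from −0.12 to −0.05 in Cre/+, from −0.14 to −0.02 in Cre/Cre and from −0.07 to 0.05 between Cre/Cre and Cre/+, the summed share of TPM from 3.39% to 3.60% in +/+, from 3.31% to 3.38% in Cre/+ and from 3.15% to 3.35% in Cre/Cre, and the ratio of large to small from 1.28 to 1.31, from 1.26 to 1.29 and from 1.30 to 1.32. Summing rows of 1 locus gave a share of 3.44% in Cre/+ and ratios of 1.33 in +/+, 1.32 in Cre/+ and 1.33 in Cre/Cre, since the added rows belong to the sums. Without *Rn45s* and short RNA genes, the members at an unadjusted p under 0.05 numbered 17 lower and 1 higher in Cre/+ (7.15% and 8.92% of all genes), and for Cre/Cre 0 lower and 1 higher (3.01% and 5.83%), while between Cre/Cre and Cre/+ they numbered 11 higher and 1 lower (5.86% and 2.91%). With only the genotypes compared, 22 were lower in Cre/+ (7.76% of all genes). The cause was not tested. Of 1800 values of named genes under alternatives, 8 moved by more than the gene's own residual SD and none crossed the limit. This SD is wide for genes that vary most, so large shifts of theirs need not count as moved. For *Rps27* in Cre/+, the shift from 2.08 ± 2.10 (SE) to 0.18 with rows summed did not count.

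With replicate number as a block, 0 members passed in each contrast and the medians stayed at −0.08, −0.08 and −0.01. The numbers were not taken as pairing, since libraries that share a number correlated in their deviations between −0.12 and 0.13, and those of different numbers up to 0.26. Depth per gene cannot be had from TPM, and the spread of 3 libraries set the precision.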
